A study of Mus musculus with 24 samples.

Results

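Macrophages and other leukocytes make up a small share of the pituitary, and 31 of their marker genes were followed across 24 mouse pituitary RNA sequencing libraries. The genes were taken by symbol from the deposited count table, which holds 35191 genes; all 31 were found in it, and all 31 passed the filter on low counts that left 21927 genes for testing. The study concerned a conditional knockout (Egr1cKO) of Egr1, a zinc-finger transcription factor induced early after stimulation. Each sex had 4 genotypes with 3 libraries each. Wild type carried the genotype wt (-), Cre control wt (+), Egr1cKO control FF (-) and Egr1cKO FF (+). The sign is read here as the presence of the Cre transgene, because the wt (+) libraries are titled Cre control. The letters FF are not spelled out in the labels, and the 2 Egr1cKO genotypes share them. The Cre driver, the deleted exon and the age of the mice are not in the labels, so the cells in which Egr1 was to be lost are not known.

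Tissue macrophages depend on signalling through the receptor Csf1r and on the transcription factor Spi1 (PU.1), and they clear debris through complement, Fc receptors and lysosomal enzymes. In the pituitary they lie among the hormone cells of the anterior lobe, and microglia-like cells lie in the posterior lobe, which is nervous tissue. Lymphocytes are normally rare in the gland. Egr1 itself has been studied in myeloid cell differentiation.

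Total counts ran from 15486069 to 26255343 per library. Levels are given as CPM, counts divided by library totals that were scaled by TMM, a normalization that equalizes the bulk of genes. The labels give the cell type as endocrine, and all 8 endocrine markers were detected in every group, summing to between 95740.5 and 425984 CPM per library. By group mean, Egr1 was higher rather than lower in libraries labelled Egr1cKO, and in females the groups overlapped: it measured 58.3, 238 and 105 CPM in male Egr1cKO against 51.1, 22.7 and 42.7 CPM in the male controls, and 162, 7.55 and 26.6 CPM in female Egr1cKO against 34.2, 10.97 and 9.79 CPM in the female controls. High Egr1 was not limited to these libraries. The Cre controls measured 486, 74.3 and 25.3 CPM in males and 61.7, 486 and 94.8 CPM in females. Wild type measured 19.1, 43.8 and 51.5 CPM in males and 10.9, 167 and 31.8 CPM in females. Counts per gene cannot show the loss of an exon, and directions below refer to the libraries as labelled. The female Egr1cKO libraries had a high mitochondrial share, and their numbers of genes with a count were low but overlapped their controls. Mitochondrial transcripts took 8.73% to 10.4% of their counts, against 3.50% to 6.87% in their controls. The share was 5.52% to 6.69% in the female Cre controls and 2.08% to 4.80% in all male groups. In female Egr1cKO 18508 to 20556 genes had a count, against 19896 to 24702 in their controls and 20237 to 21848 in the female Cre controls. Female wild type replicate 1 resembled them, with a mitochondrial share of 10.1% and 18663 genes with a count.

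The promoters of C1qb, Ctss and Spn are shown because the results below turn on Ctss, the C1q genes and Spn, and because GENCODE M21 places no exon in these windows. Each is the 250 bases before the RefSeq start site (GRCm38.p6), printed 5′ to 3′ on the strand of the gene. Capitals mark the word GAGGAA or its reverse complement, the core that PU.1 binds.
C1qb (minus strand, chr4:136886201-136886450): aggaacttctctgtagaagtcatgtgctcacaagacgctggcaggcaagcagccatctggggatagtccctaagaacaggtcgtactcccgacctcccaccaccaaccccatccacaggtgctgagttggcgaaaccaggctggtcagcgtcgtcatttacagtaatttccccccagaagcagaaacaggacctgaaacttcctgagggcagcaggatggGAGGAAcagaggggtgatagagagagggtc
Ctss (plus strand, chr3:95526536-95526785): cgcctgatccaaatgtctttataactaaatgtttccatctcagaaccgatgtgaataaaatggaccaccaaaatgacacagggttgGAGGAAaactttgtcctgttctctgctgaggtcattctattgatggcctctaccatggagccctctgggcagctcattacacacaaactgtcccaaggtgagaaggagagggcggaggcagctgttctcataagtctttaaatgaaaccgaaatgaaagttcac
Spn (minus strand, chr7:127137824-127138073): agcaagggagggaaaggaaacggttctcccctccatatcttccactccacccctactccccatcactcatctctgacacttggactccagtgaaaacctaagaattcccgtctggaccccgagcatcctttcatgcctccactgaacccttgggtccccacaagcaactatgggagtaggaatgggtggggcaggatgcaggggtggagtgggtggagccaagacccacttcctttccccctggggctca

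RefSeq promoters were at hand for 23 members, 27 in all, since some genes have more than 1 start site. GAGGAA was present in either orientation in the promoters of 15 of these 23 members (16 of 27 promoters), and in 23.3% of 32851 mouse promoters of the same length. It starts 30 bases before the start site of C1qb and 164 before that of Ctss, and these letters are not in the Spn window. They are present for Ltb, which is not printed and was called lower together with Spn in the results below. No promoter was at hand for C1qa, the C1q gene called below. The word therefore does not divide the members by direction. The longer word GAGGAAGT, which contains the first, was found in 1 member (C1qc) and in 2.44% of all promoters. The EGR-type word GCGNGGGCG was found in no member and in 4.7% of all promoters. The last word searched, TTCCTGTTT, was found in 3 members (Ltb, Lyz2 and Mrc1) and in 0.855% of all promoters. With the 50 bases after the start site added, the members counted were 15, 4, 0 and 3 for the 4 words, against 28.3%, 3.2%, 5.55% and 1% of all promoters. The words and the window were settled after these counts were seen. A match is a run of letters and not a binding site.

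Levels can be compared between genes only per length, so CPM was divided by the exon length of each gene in kilobases. By median over the 24 libraries, the lysosomal protease Ctss (cathepsin S) led with 28.3 CPM per kilobase. It was followed by C1qa (25.8) and C1qb (25.3), chains of the complement starter C1q, by the lysozyme Lyz2 (19.9) and by the last C1q chain, C1qc (11.99). The signalling adaptors Tyrobp (9.74) and Fcer1g (9.61), the lysosomal membrane protein Cd68 (5.09) and Csf1r (4.53) came next. These genes were counted in every library, so macrophage transcripts were present in all 24. At the low end stood Spn, a sialoglycoprotein of T cells and other leukocytes (0.308), the haemoglobin scavenger receptor Cd163 (0.241), the hyaluronan receptor Lyve1 (0.147) and the clotting factor subunit F13a1 (0.0605), the last 3 being genes of perivascular-type macrophages. F13a1 had no count in 7 libraries, Ltb in 5, Lyve1 in 4, Spn in 2, and P2ry12 and Cd163 in 1 each. The libraries are not stranded, so Csf1r may share reads with Hmgxb3, Coro1a with Bola2, P2ry12 with Med12l, and Cx3cr1 with Wdr48, Gorasp1 and Csrnp1, which overlap them.

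**Figure D1:**
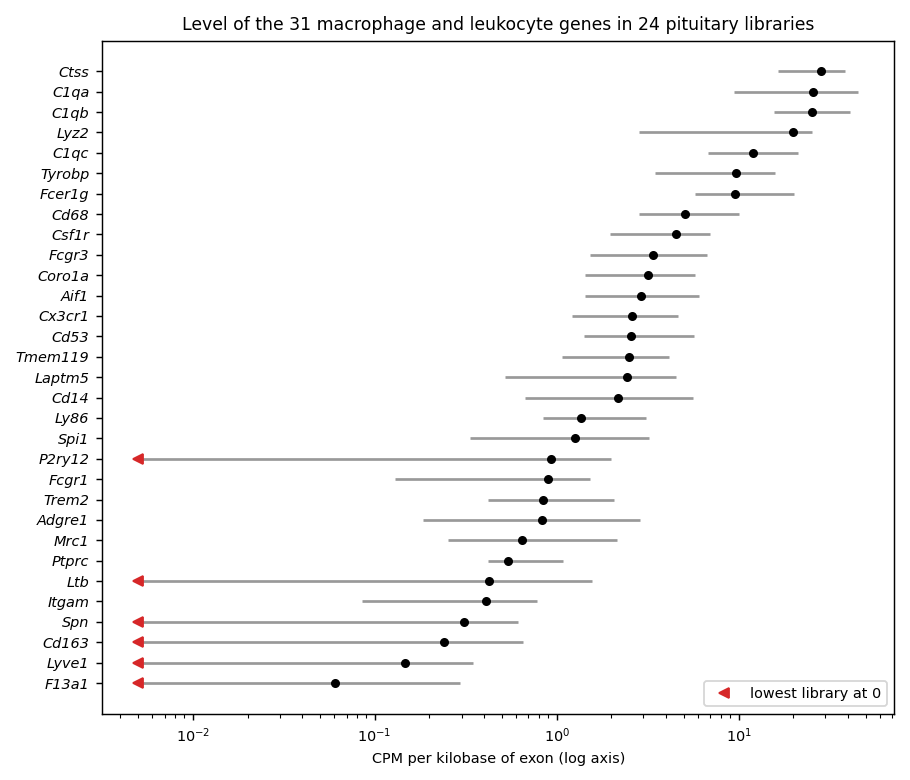
Level of each of the 31 genes in CPM per kilobase of exon (log axis): the dot is the median of 24 libraries, the line runs from the lowest to the highest library, and a triangle marks genes whose lowest library was at 0. Ctss, C1qa and C1qb lead, and F13a1 is lowest with 7 libraries at 0.

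Carrying Cre, averaged over both sexes and both Egr1 genotypes, went with higher Ctss and C1qa and with lower Spn and Ltb, and the other members did not pass the test. The average joins Cre controls against wild type with Egr1cKO against its control, where carrying Cre and the Egr1cKO label go together. In Cre controls against wild type alone, 0 of 31 members were called in either sex. In bulk tissue, more cells of a type and more RNA per cell cannot be told apart. Of the 31 members, 2 were called higher and 2 lower at an adjusted p under 0.05 (edgeR quasi-likelihood test, adjusted over all 21927 genes), while 6.89% of all genes tested were called, 2.8% higher and 4.08% lower. The log2 fold change was above 0 in 24 of 31 members and in 45.7% of all genes tested. Its median was 0.32 over the members, against -0.03 over all genes tested. Some members varied together within groups, as given below, so such counts of members are not independent.

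Ctss (ENSMUSG00000038642, chromosome 3, 95526786 to 95556403, plus strand) ran from 31.9 to 52.2 CPM with a median of 43.1 in the 12 libraries with Cre. In the 12 without Cre it ran from 22.3 to 41.1 CPM with a median of 32.5. The ranges overlapped, and the median with Cre lay above the highest library without it. By edgeR this was a log2 fold change of 0.44 (SE 0.10, adjusted p = 0.0078). C1qa (ENSMUSG00000036887, chromosome 4, 136895917 to 136898803, minus strand) ran from 15.4 to 47.4 CPM with a median of 33.0 with Cre. Without Cre it ran from 9.85 to 27.3 CPM with a median of 25.02. By edgeR C1qa differed by 0.52 on the log2 scale (SE 0.15, adjusted p = 0.028). The call on C1qa was lost when any 1 of 7 libraries was left out, with adjusted p up to 0.0760 without male Cre control replicate 1. The nearest members not called were the IgG receptor Fcgr3 (log2 fold change 0.56, edgeR adjusted p = 0.0517), Csf1r (0.44, adjusted p = 0.0664), C1qc (0.41, adjusted p = 0.0778) and the microglial membrane protein Tmem119 (0.57, adjusted p = 0.0922).

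All 4 of these calls were lost without the pair of female Egr1cKO and its control. Averaged over the other 3 pairs of groups, an alternative chosen after seeing the data, 0 of the 31 members were called by edgeR, with 5 at an unadjusted p under 0.05, and 514 genes in all against 1510 over the 4 pairs. Ctss then had a log2 fold change of 0.39 (edgeR adjusted p = 0.0838), C1qa 0.37 (adjusted p = 0.330), Spn -0.11 (adjusted p = 0.962) and Ltb -0.59 (adjusted p = 0.810).

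**Figure D2:**
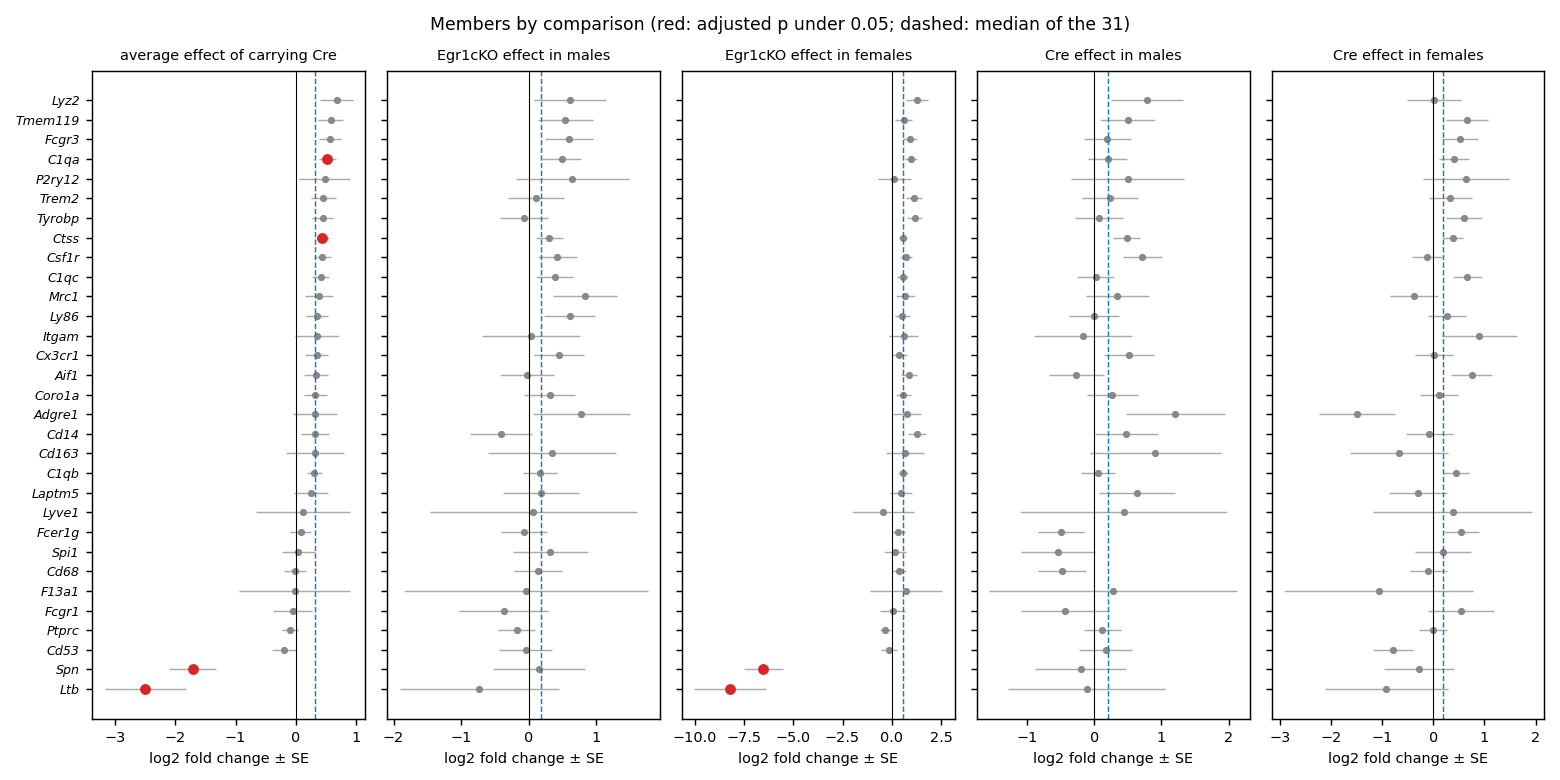
Log2 fold change (x axis) of each of the 31 genes in 5 comparisons, ordered by the average effect of carrying Cre; points are edgeR estimates, bars are standard errors, red points have an adjusted p under 0.05 and the dashed line is the median of the 31. Spn and Ltb are the red points in females with Egr1cKO, and Ctss, C1qa, Spn and Ltb those in the average effect of carrying Cre.

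In females, Egr1cKO libraries had almost no Spn or Ltb reads. Spn (ENSMUSG00000051457, chromosome 7, 127132232 to 127137823, minus strand) measured 0, 0 and 0.0468 CPM in female Egr1cKO and 1.99, 2.62 and 1.33 CPM in the female Egr1cKO controls. That is 1 count against 125, a ratio of 0.00831 after scaling, with an exact 95% interval from 0.000209 to 0.0472 that covers counting error only. Ltb (ENSMUSG00000024399, chromosome 17, 35194439 to 35196320, plus strand), which encodes lymphotoxin beta, a cytokine of T and B cells, had 0 counts in female Egr1cKO. In the controls it measured 1.45, 2.37 and 1.28 CPM, 106 counts in all. Against a floor of 3 counts over the group (0.0475 CPM), Ltb was at least 34.0-fold lower. Neither gene overlapped between the groups, and both were called lower by edgeR (Spn adjusted p = 0.000736, Ltb adjusted p = 0.0173). Their fitted log2 fold changes, -6.52 and -8.21, depend on the prior count. In a model of these 2 groups alone neither passed (Spn adjusted p = 0.0605, Ltb adjusted p = 0.0649), and Ltb also missed the threshold without control replicate 2 (0.0532) or Egr1cKO replicate 3 (0.0744).

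The other groups held Spn and Ltb at low levels. Spn ran from 0.812 to 2.87 CPM in the libraries outside female Egr1cKO. Ltb was at 0 in 2 of them, female wild type replicate 1 and female Cre control replicate 1, and otherwise reached up to 2.37 CPM. Both of those libraries belong to groups that also hold libraries with Ltb counts, unlike female Egr1cKO. Female wild type replicate 1 was also the library that resembled female Egr1cKO, with a mitochondrial share of 10.1% and 18663 genes with a count. Female Cre control replicate 1 had 6.04% and 21165 genes. Within groups, the relation of Ltb to the mitochondrial share did not pass (Pearson r = -0.50, permutation adjusted p = 0.444, n = 24). By ranks it did not pass either (Spearman rho = -0.0096, permutation adjusted p = 0.973). That relation leaves out differences between groups. Whether the Ltb zeros go with the number of genes with a count was not tested. Both genes are known from lymphocytes, so lymphocyte markers were read beside them. Of 12 T and NK cell markers, edgeR called 1 higher and 1 lower in female Egr1cKO, beside 0.762% higher and 1.45% lower of all genes. The T cell receptor constant gene Trbc2 was higher (log2 fold change 2.57, adjusted p = 0.0370), with 5.19 to 23.3 CPM against 1.03 to 2.62 CPM. Thy1, a surface protein that neurons also carry, was lower (-0.74, adjusted p = 0.0175). Of 8 B cell markers edgeR called 0, with 1 at an unadjusted p under 0.05 and 0 called by DESeq2. The pan-leukocyte phosphatase Ptprc was at 10.7, 8.78 and 14.8 CPM in female Egr1cKO and 19.9, 10.03 and 13.1 CPM in its controls, and its log2 fold change of -0.33 did not pass (adjusted p = 0.560).

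**Figure D3:**
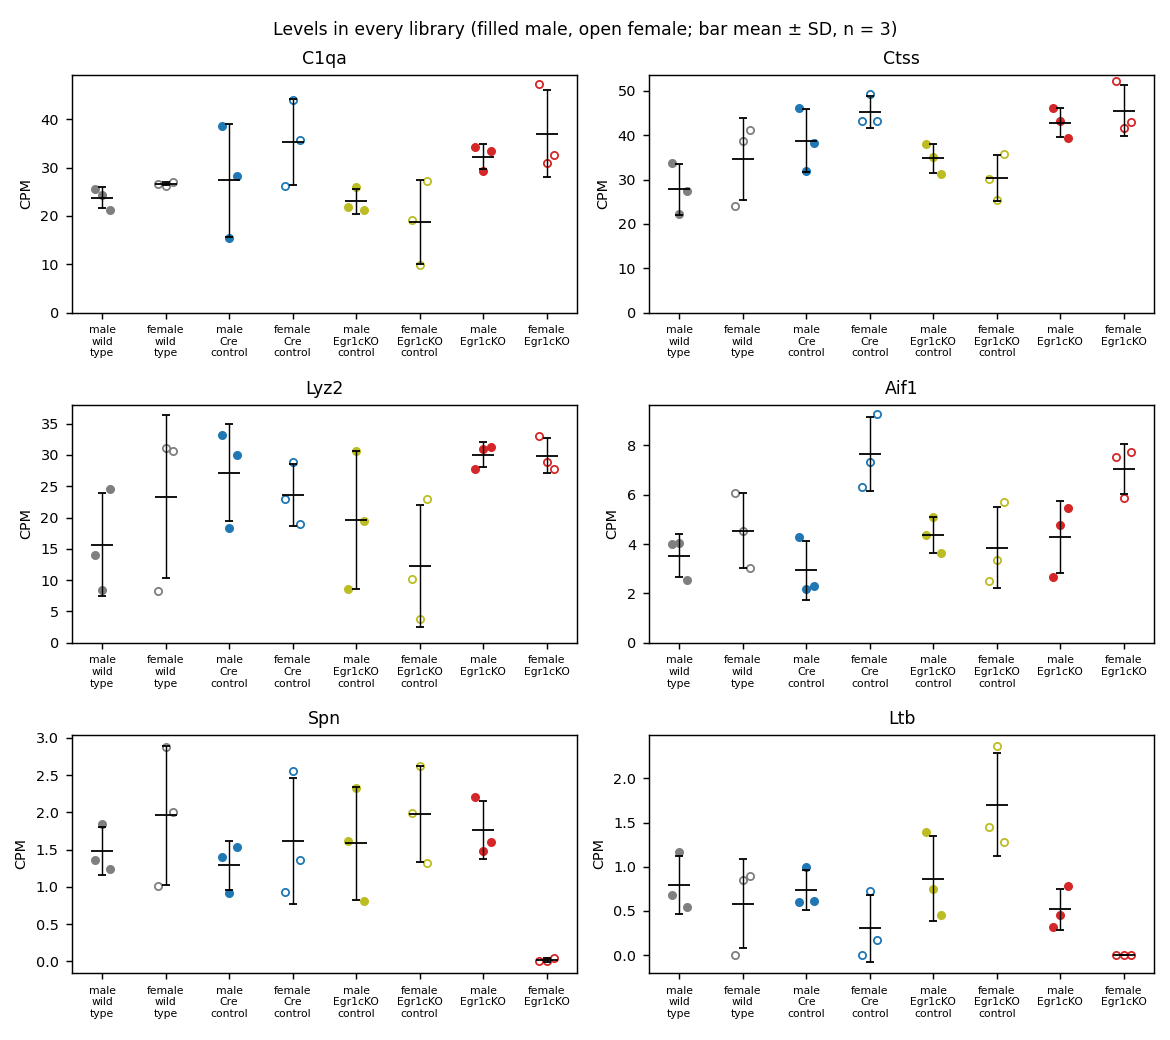
CPM (y axis) of 6 genes, chosen after their values were seen, in each of the 24 libraries by group; filled points are male, open points female, and the bar is the mean with its SD (n = 3). Spn and Ltb lie at or near 0 in female Egr1cKO, and C1qa and Ctss reach their highest group means there.

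Most other members had log2 fold changes above 0 in females. No member was called higher with Egr1cKO by edgeR, while 12 of 31 had an unadjusted p under 0.05 in either direction and DESeq2 called C1qa (adjusted p = 0.0338) and Tyrobp (0.0272) higher. The share called among all genes was 2.21%, 0.762% higher and 1.45% lower, and 19.3% had an unadjusted p under 0.05. The log2 fold change was above 0 in 26 of 31 members and in 46.2% of all genes. The members' median was 0.58 against -0.05 over all genes, and it stayed at 0.58 with Ltb set to its bound. The 3 Egr1cKO libraries lay above all 3 controls for 8 members, as they did for 9.57% of all genes, and below for Spn and Ltb, as for 11.9% of all genes. The 8 were C1qa, Tyrobp, Ctss, the lipopolysaccharide co-receptor Cd14, the lipid receptor Trem2, Fcgr3, Lyz2 and Aif1, an actin-binding protein of macrophages.

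C1qa measured 47.4, 31.05 and 32.5 CPM in female Egr1cKO and 19.1, 9.85 and 27.3 CPM in the controls (log2 fold change 0.98, edgeR adjusted p = 0.0716). Tyrobp measured 9.91, 8.28 and 9.73 CPM against 4.24, 2.31 and 5.94 CPM (1.15, edgeR adjusted p = 0.0820). Trem2, which signals through Tyrobp, measured 10.2, 7.83 and 8.51 CPM against 4.24, 2.74 and 5.17 CPM (1.12, edgeR adjusted p = 0.147). In all 3 genes control replicate 2 was the lowest of the 6 libraries. Without control replicate 3, C1qa was called (log2 fold change 1.35, adjusted p = 0.0303). With the mitochondrial share of each library as a covariate, 13 members were called in place of 2 and the median rose to 0.99. That covariate, added after seeing the data, was higher in all 3 female Egr1cKO libraries than in their controls. With a mean per group in the model, its slope comes from differences between libraries within groups. The widest such range was in female wild type, from 2.14% to 10.1%, where replicate 1 alone was high. The part of the mitochondrial share in the result was not tested.

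In males, no member was called for Egr1cKO against its control. By edgeR 0 of 31 passed, 0 had an unadjusted p under 0.05 and DESeq2 called 0, while edgeR called 0.041% of all genes. The median log2 fold change was 0.18 against 0.03 over all genes, with 22 of 31 members and 52.6% of all genes above 0. The male Egr1cKO libraries lay above their controls for C1qa, Ctss, C1qc and Tmem119, 4 of 31, and 10.8% of all genes did so. C1qa measured 34.2, 29.3 and 33.4 CPM against 21.8, 25.9 and 21.3 CPM, with a log2 fold change of 0.49 that did not pass (adjusted p = 0.844). Spn, at 2.20, 1.48 and 1.60 CPM against 1.62, 2.33 and 0.812 CPM, overlapped between the male groups.

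The Cre controls, which carry wild-type Egr1, were compared with wild type in the same way. In males 0 of 31 members were called by edgeR, 2 had an unadjusted p under 0.05 and DESeq2 called 0, with 0.233% of all genes called. The median was 0.20 against 0.01 over all genes. Csf1r, the macrophage adhesion receptor Adgre1 (F4/80) and the leukocyte lysosomal protein Laptm5 were higher in all 3 male Cre controls than in every male wild type library, 3 of 31 members against 11.1% of all genes. Spi1 was lower in all 3, at 3.20, 3.45 and 2.77 CPM against 5.12, 3.64 and 4.98 CPM, 1 of 31 against 10.5% of all genes. In females 0 of 31 were called by edgeR, 1 had an unadjusted p under 0.05 and DESeq2 called 0, with 1.21% of all genes called. The median was 0.19 against -0.04 over all genes, and it ranged from -0.10 to 0.38 when 1 library was left out. C1qc, Ctss, Aif1 and Tyrobp were without overlap and higher in the female Cre controls, 4 of 31 against 8.02% of all genes. Ctss measured 43.1, 49.3 and 43.1 CPM there and 24.1, 38.6 and 41.1 CPM in female wild type. Adgre1 was at 1.33, 2.24 and 2.72 CPM in female Cre control and at 0.594, 7.77 and 9.35 CPM in female wild type. Without female wild type replicate 1, the library at 0.594 CPM, Adgre1 was called lower in the female Cre controls (log2 fold change -2.02, adjusted p = 0.0286).

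The differences between these effects were tested directly. For sex by Egr1cKO, the female effect minus the male effect, Spn was the 1 member called (log2 difference -6.67, SE 1.20, edgeR adjusted p = 0.0388), with 0.0228% of all genes called, 0.0182% lower. That call was lost in 11 of 12 fits that left out 1 library, with adjusted p up to 0.182, and in the model of the 4 groups alone. The difference for Ltb was -7.47 (edgeR adjusted p = 0.334). For sex by Cre, 0 members were called by edgeR, 2 had an unadjusted p under 0.05 and DESeq2 called 0, with 0.128% of all genes called. The Egr1cKO effect beyond the Cre effect, averaged over sexes, gave 0 members by edgeR, 2 at an unadjusted p under 0.05 and 0 by DESeq2. Of all genes, edgeR called 0% in that comparison.

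Sex differences in these genes were called only among libraries that carry Cre; whether the sex difference itself changes with Cre was tested only through the interactions above. Without Cre, 0 members were called by edgeR, 2 had an unadjusted p under 0.05 and DESeq2 called 0, with 1.5% of all genes called. With Cre, 4 members were higher in females (Aif1, Fcer1g, Cd68 and Trem2) and 2 lower (Spn and Ltb), while 27.9% of all genes were called, 12% higher and 15.9% lower. The share of members called, 6 of 31, was thus below the share of all genes. Aif1 ran from 5.87 to 9.27 CPM with a median of 7.42 in the 6 females with Cre and from 2.18 to 5.46 CPM with a median of 3.48 in the 6 males with Cre, without overlap (log2 difference 1.05, edgeR adjusted p = 0.00858). Fcer1g, the common gamma chain of Fc receptors, ran from 7.89 to 17.6 CPM with a median of 12.4 in those females and from 5.06 to 10.8 CPM with a median of 6.66 in those males (0.87, edgeR adjusted p = 0.00967). Cd68 had medians of 8.74 and 5.005 CPM (0.75, edgeR adjusted p = 0.0305), and Trem2 8.05 and 3.94 CPM (0.86, edgeR adjusted p = 0.0314).

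The calls on Cd68 and Trem2 were lost in 8 and 7 of the 12 fits that left out 1 library. The mitochondrial share of these females was 5.52% to 10.4%, against 2.08% to 3.79% in the males, and with it as a covariate edgeR called 0 members (10 at an unadjusted p under 0.05) and 391 genes, against 6 and 6113 without it. Its part in the result was not tested. Between the Cre control groups alone 0 members were called by edgeR and 2 had an unadjusted p under 0.05; DESeq2 was not run on this contrast. Aif1 had a log2 difference of 1.38 (adjusted p = 0.0544), and Spn had 0.33, against -3.01 over both genotypes. Spn measured 0.931, 2.56 and 1.36 CPM in the female Cre controls and 1.40, 0.920 and 1.54 CPM in the male Cre controls, which overlap.

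Summed over the 31 genes, the level was 245 to 422 CPM with a median of 311 in the libraries with Cre and 179 to 327 CPM with a median of 233 in those without. The sum of 8 posterior lobe markers moved the same way, from 217 to 651 CPM with a median of 394 with Cre and from 101 to 387 CPM with a median of 283 without. No posterior lobe marker was at 0 in any group. Of these 8 markers, 6 were called higher with Cre by edgeR, among them the hormone gene Oxt (log2 fold change 1.05, adjusted p = 0.000235), and none of the 8 fell. Markers of other cell types also changed with Cre by edgeR. Calls in all these lists stand beside 6.89% of all genes tested, 2.8% higher and 4.08% lower. Of 8 fibroblast and mural markers 2 were higher, the collagen gene Col3a1 (0.73, adjusted p = 0.000594) and the proteoglycan gene Dcn (0.68, adjusted p = 0.00151), and 1 was lower, the collagen gene Col1a2 (-0.77, adjusted p = 0.000151). The stem cell factor Sox2 (0.49, adjusted p = 0.00326) was the 1 higher of 6 folliculostellate and stem cell markers, and Emcn (0.34, adjusted p = 0.0352) the 1 higher of 8 endothelial markers. Kit (0.66, adjusted p = 0.00505) was higher among 4 mast cell markers tested. Of 12 T and NK cell markers, Trbc2 was higher (1.83, adjusted p = 0.000664) and Thy1 lower (-0.45, adjusted p = 0.0010). The amount of posterior lobe in each sample is not given in the labels, and the part of these cell types in the results above was not tested.

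**Figure D4:**
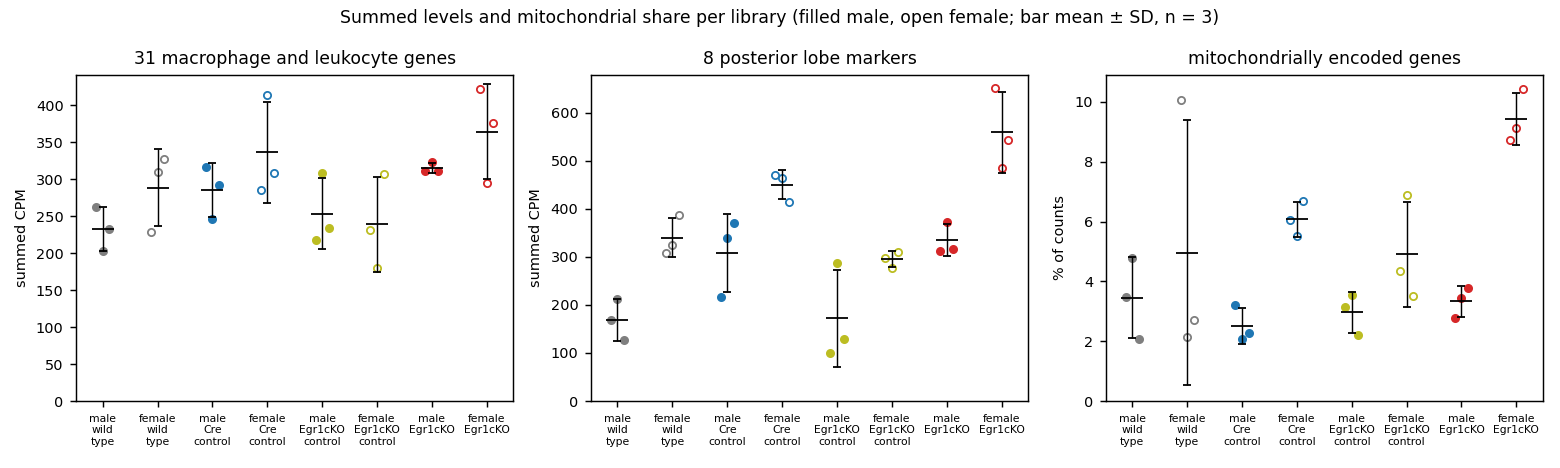
Summed CPM of the 31 genes (left), summed CPM of 8 posterior lobe markers (middle) and mitochondrial share of counts in percent (right) for each of the 24 libraries by group; filled points are male, open points female, bars are the mean with its SD (n = 3). Both sums reach their highest library in female Egr1cKO (422 and 651 CPM), where the mitochondrial share is 8.73% to 10.4%.

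Related genes were counted in lists chosen by function. Their calls with Cre stand beside 6.89% of all genes tested, 2.8% higher and 4.08% lower. Of all genes tested, 45.7% had a log2 fold change above 0. Of 10 microglia-type genes, which include P2ry12 and Tmem119, all 10 had a log2 fold change above 0 with Cre with a median of 0.52, and 0 were called by edgeR (3 at an unadjusted p under 0.05); Siglech stood at 0.66 (adjusted p = 0.101). Of 12 perivascular-type macrophage genes, which include Cd163, Mrc1, Lyve1 and F13a1, 0 were called and 0 had an unadjusted p under 0.05. Of 16 lysosome and phagocytosis genes 3 were higher, the lipid carrier Apoe (0.50, adjusted p = 0.000843), the lipase Lpl (0.52, 0.00453) and the fatty acid receptor Cd36 (1.37, 0.0192). Of 14 Fc receptor and ITAM signalling genes 1 was lower, the phospholipase Plcg2 (-1.03, adjusted p = 6.83e-05). Of 13 chemokine and cytokine genes tested 1 was higher, the chemokine Cxcl12 (0.53, adjusted p = 0.0486). Of 13 macrophage growth factors and transcription factors tested, 0 were called with Cre by edgeR, with 4 at an unadjusted p under 0.05, and Irf8 stood at 0.45 (adjusted p = 0.0811). Endocrine markers changed in the same comparison, with 4 of 8 higher and 3 of 8 lower; prolactin (Prl) was lower, at -2.17 (adjusted p = 8.9e-08). The monocyte, complement, B cell, neutrophil and red blood cell lists gave 0 calls by edgeR, with 1, 3, 1, 0 and 0 genes at an unadjusted p under 0.05 and 0, 0, 1, 0 and 0 calls by DESeq2. DESeq2 called 0 genes of the microglia-type list, 0 of the perivascular-type list and 1 of the growth factor and transcription factor list, higher.

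For the sex difference with Cre, calls in the lists stand beside 27.9% of all genes tested, 12% higher and 15.9% lower. The difference in mitochondrial share given above for these libraries applies to them too. Among females with Cre, Apoe (0.60, edgeR adjusted p = 0.00168), the growth factor Csf1 (0.52, adjusted p = 0.0208), the receptor chain Csf2ra (1.22, adjusted p = 0.0219) and the inhibitory receptor Fcgr2b (1.10, adjusted p = 0.0154) were higher than in males with Cre. The other called genes of the Fc receptor and ITAM list, Plcg2 (-0.75, adjusted p = 0.0110) and the kinase Lyn (-0.62, adjusted p = 0.0459), were lower. Of 14 complement genes tested 1 was higher, Cfp (1.18, adjusted p = 0.00326), and 2 were lower, Cd55 (-0.88, adjusted p = 0.0288) and Serping1 (-0.55, adjusted p = 0.0128). Of 13 chemokine and cytokine genes tested, Ccl3 was higher (2.27, adjusted p = 0.0386) and Cxcl12 lower (-0.66, adjusted p = 0.0343). Most other called genes of the lysosome list were lower there, 8 lower against 2 higher, with Lamp1 at -1.31 (adjusted p = 0.000559). Cd68 and Ctss are lysosomal genes too, and Cd68 was higher while Ctss, at a log2 difference of 0.16, did not pass (adjusted p = 0.446).

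Within groups, some members varied together across libraries. With each group centred on its own mean, the 465 pairs of members had a median Pearson r of 0.20 over the 24 libraries; 77 pairs were above 0.5 and 3 below -0.5. C1qa and Tyrobp had the highest r (0.87), followed by C1qb and C1qc (0.85), which lie side by side on chromosome 4, and Csf1r and Laptm5 (0.82). Cd68 and Lyz2 had the lowest (-0.58). These values describe libraries that share depth and composition. Outside the members, the genes most like the members' mean by the same measure were Kctd12 (0.87), Nxn (0.87) and the nucleic acid receptor Tlr7 (0.86).

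The relation of each member to the mitochondrial share was examined after the data were seen, over 31 genes and centred within groups. Differences between members in this relation were not tested. Cd53, a leukocyte tetraspanin, rose with it (Pearson r = 0.59, Spearman rho = 0.73, permutation adjusted p = 0.0133 and 0.0167, n = 24), and r was 0.51 without the 2 libraries farthest from the median share, female wild type replicates 1 and 2. Laptm5 had r = -0.81 and rho = -0.75 (permutation adjusted p = 0.0886 and 0.0515), and r was -0.73 without those 2 libraries. Lyz2 had r = -0.72 (permutation adjusted p = 0.0895) and the integrin chain Itgam r = 0.60 (permutation adjusted p = 0.0895), and neither passed. Csf1r had r = -0.62 (permutation adjusted p = 0.0886) and did not pass either. Macrophage genes lay on both sides of 0, with Adgre1 at r = -0.71 and Cd68 at r = 0.49, and neither passed. Of the 31 members only Cd53 passed. Within the female wild type group, replicate 1 had 8.26 CPM of Lyz2 against 31.05 and 30.6 CPM in the other two, and 9.92 CPM of Cd53 against 5.09 and 7.14 CPM.

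**Figure D5:**
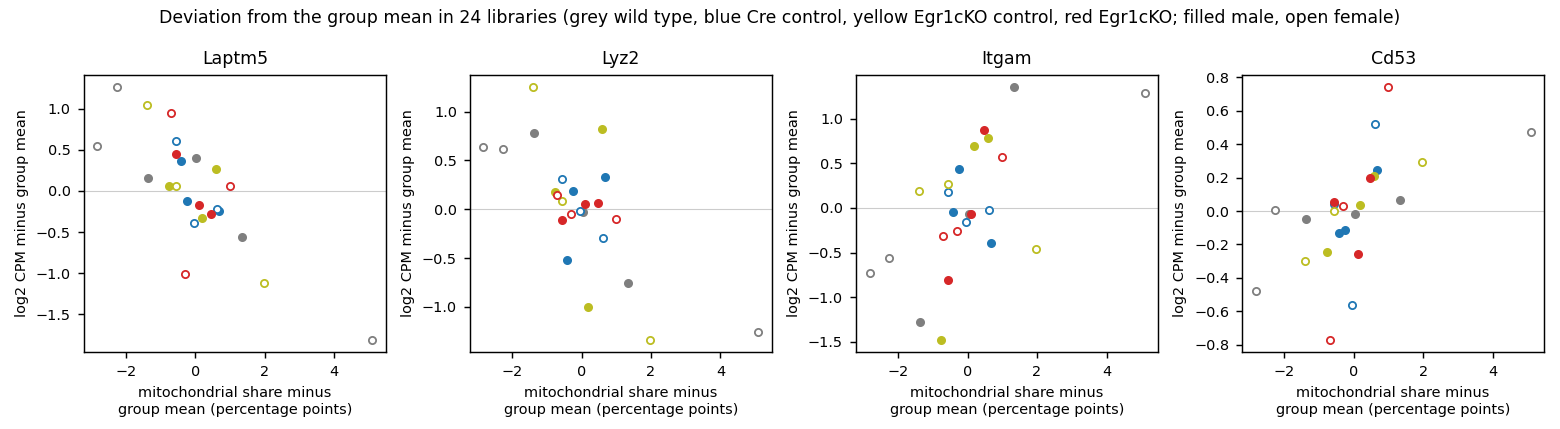
Log2 CPM minus the group mean (y axis) against mitochondrial share minus the group mean in percentage points (x axis) for Laptm5, Lyz2, Itgam and Cd53 in 24 libraries, genes chosen after their values were seen; colours give the genotype, filled points are male and open points female. Laptm5 and Lyz2 slope down (r = -0.81 and -0.72) and Itgam and Cd53 slope up (r = 0.60 and 0.59).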

How the data were processed

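Whole-number read counts per Ensembl gene were deposited by the authors without normalization for 24 pituitary libraries, 3 in each of 8 groups. Per the labels, 1.5 ug of total RNA from an RNeasy kit went into non-stranded libraries. Per the submitters' processing notes, Trim Galore 3.8.2, FastQC, STAR 2.7.9 and GRCm38 were used; the counting tool is not given in the sources used here, nor is the annotation release. GENCODE M21 matched 35077 of 35191 identifiers and gave symbols, exon lengths and positions.

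Counts were fitted in R 4.3.3 with edgeR 4.0.16 (filterByExpr, TMM, robust quasi-likelihood test) in 1 model with a mean per group (16 residual degrees of freedom). P-values of the 10 comparisons were adjusted by Benjamini-Hochberg over 21927 genes at 0.05. Fitted fold changes used a prior count of 0.125 and log2 CPM one of 2. The fitting script was tested on simulated data. Reads carry no molecular identifiers, so intervals cover counting error only. No replicate pair was a duplicate (lowest chi-square per degree of freedom 16.3 over 24 pairs, taken over genes whose counts sum to 20 or more). Titles carry 1 number per library and nothing else says that libraries are separate animals, so p-values measure the spread between these samples.

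The 31 members and 18 other lists were chosen with earlier results of these data known. Every member was eligible for naming; of other lists, the genes called in any comparison and up to 3 per list with the smallest p for carrying Cre. The 10 genes most correlated with the members' mean could also be named, leaving out Gm and Rik names. Vsig4 was not analysed here. Alternatives were RLE size factors, no filter, DESeq2 1.42.0, the compared groups alone and leaving out each library. The mitochondrial covariate, the average over 3 pairs of groups and the Cre control groups alone were added after seeing the data. Relations to the mitochondrial share used 100000 permutations within groups.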

Additional observations from a re-analysis of the deposited data

Results flagged for a closer look

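The Egr1cKO effect on Spn passed a test of the difference between the sexes, a call that most fits without 1 library did not keep. The log2 difference, female effect minus male effect, was -6.67 (SE 1.20, edgeR adjusted p = 0.0388). The call was lost in 11 of 12 fits that left out 1 library, with adjusted p up to 0.182, and in the model of the 4 groups alone (-6.64, adjusted p = 0.0919). It was kept without female Egr1cKO replicate 3 (adjusted p = 0.0449) and by DESeq2 (-6.97, adjusted p = 0.0019). The difference ran from -8.57 to -6.13 in the fits without 1 library. Spn had 1 count in the 3 female Egr1cKO libraries and 125 in their controls, whereas male Egr1cKO measured 2.20, 1.48 and 1.60 CPM against 1.62, 2.33 and 0.812 CPM. The size of the difference depends on the prior count, because 2 of the 3 female Egr1cKO libraries had no count, and those libraries also had the highest mitochondrial shares as a group (8.73% to 10.4%). With that share as a covariate the difference was -6.44 (SE 1.33, edgeR adjusted p = 0.0577), close in size but no longer called. The part of the mitochondrial share was not tested further.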

How the results depend on the processing

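No paired analysis was possible because the titles carry a different number for each library and the groups share none.

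RLE size factors moved no count of calls by over 1.5 times. Genes called among all tested (edgeR, main, then without the filter, with DESeq2, with the compared groups alone and with the mitochondrial covariate) numbered 9, 339, 104, 192 and 208 for Egr1cKO in males, 51, 704, 289, 112 and 179 for Cre in males, and 265, 1149, 1018, 2 and 599 for Cre in females. In the same order they numbered 28, 1427, 947, 4 and 166 for sex by Cre, 5, 167, 85, 8 and 11 for sex by Egr1cKO, and 329, 763, 685, 164 and 555 for sex without Cre. For Egr1cKO in females the 484 genes became 1142 without the filter, 1436 with DESeq2 and 3081 with the covariate. The effect beyond Cre went from 0 to 59, 3 and 320 under those settings. With the covariate, carrying Cre gave 4239 genes in place of 1510 and sex with Cre 391 in place of 6113. Averaged over the other 3 pairs, carrying Cre gave 514, and the Cre control groups alone gave 791 for sex.

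Members called for Egr1cKO in females went from 2 to 4 without the filter (adding C1qa and Lyz2), 4 with DESeq2, 0 with the compared groups alone and 13 with the covariate. For carrying Cre they went from 4 to 7 without the filter, 12 with the covariate and 0 over the other 3 pairs. For sex by Egr1cKO they went from 1 to 2 with DESeq2 (Ltb added), 0 with the groups alone and 0 with the covariate. For sex by Cre they went from 0 to 1 without the filter (Adgre1), and for sex with Cre from 6 to 0 with the covariate and 0 in the Cre control groups. The members' median log2 fold change moved by more than the replicate SD of 0.307 with the covariate alone: to 0.99 for Egr1cKO in females, 0.60 for sex by Egr1cKO and 0.27 for sex by Cre. Spn changed sign for sex with Cre between the Cre control groups alone (0.33 in place of -3.01). The cause of these changes was not tested.

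Leaving out 1 library gave 2 to 28 genes for Egr1cKO in males, 142 to 581 in females, 4 to 24 for Cre in males, 29 to 3603 in females (3603 without female wild type replicate 1), 1 to 4339 for sex by Cre, 0 to 19 for sex by Egr1cKO, 0 to 1 beyond Cre and 178 to 478 for sex without Cre. Members called ranged from 1 to 3 for Egr1cKO in females, 3 to 8 for carrying Cre (8 without female Egr1cKO control replicate 3), 0 to 1 for Cre in females, 0 to 2 for sex by Cre and 0 to 1 for sex by Egr1cKO. Spn kept its call for Egr1cKO in females, and Ctss, Spn and Ltb theirs for carrying Cre, in every such fit. Spn and Ltb had 1 and 0 counts over female Egr1cKO, so leaving out 1 library still leaves that group near 0. The calls for carrying Cre were lost over the other 3 pairs of groups, where 0 members passed. With 3 libraries a group, genes near 1 CPM such as Spn and Ltb rest on few counts.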
